A study of Homo sapiens with 3 samples.

Results

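PVT1 and MYC are neighbouring genes on the plus strand of chromosome 8. This report describes where the RNA-binding protein MATR3 (matrin 3) was crosslinked along their transcripts. The members are the clusters whose deposited gene name is PVT1 or MYC. There were 854 of them among 388807 clusters, 853 named PVT1 and 1 named MYC. By replicate they numbered 262, 290 and 302 of 133088, 131679 and 124040 clusters. The samples are 3 biological replicates of PAR-CLIP with an antibody against MATR3, all from HEK293, a human embryonic kidney cell line, wild type and with no treatment. They form 1 group, with no control library and no MATR3-deficient library, so all comparisons are between replicates, between sites or with other clusters of the same libraries. The genes were selected on the clusters listed under their names in these same files, so their levels, positions and recurrence are a description with no test. RNA abundance was not measured in these files, and more binding per transcript and more transcript cannot be told apart.

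In PAR-CLIP, cells take up a photoreactive uridine analogue, light joins the labelled RNA to bound protein, and the crosslinked uridine is read as C. A cluster is a group of overlapping reads with such T-to-C changes. MATR3 is a nuclear matrix protein that binds pyrimidine-rich RNA, lies largely on introns and represses the inclusion of nearby exons. PVT1 is a long non-coding RNA gene, retained mostly in the nucleus, that hosts several microRNAs and is often gained together with MYC in tumours. MYC encodes a transcription factor that drives growth and proliferation, and its mRNA is short-lived. Sequences from this chromosome are not printed, so sites are given by position on hg38.

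PVT1 (ENSG00000249859.14) runs from 127794526 to 128187101 in GENCODE release 44, a span of 392.576 kb, while RefSeq ends the gene at 128101256. The deposited PVT1 labels stopped near the RefSeq end. The last labelled cluster ended 303.3, 302.5 and 303.6 kb from the start of the gene in replicates 1, 2 and 3, and the first began at 0.899, 0.096 and 0.318 kb. MYC (ENSG00000136997.22) lies upstream, from 127735434 to 127742951. No cluster on either strand was listed in the 51.574 kb between the genes, in 3 of 3 replicates.

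PVT1 had more clusters than any other gene name in each replicate, among 11142, 11190 and 10971 names with a cluster. Its clusters held 3522, 3858 and 4333 reads in replicates 1, 2 and 3. Distinct reads numbered 1176, 1633 and 1505. Per 1000000 reads in gene-annotated clusters this was 2432, 2905 and 3189 normalised reads. The mean was 2842 normalised reads ± 382 in 284.3 clusters ± 20.1 (SD, n = 3). By reads PVT1 ranked 5, 3 and 3.

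The leading place by clusters did not carry over to density. Per kb of gene in GENCODE, PVT1 had 7.24 normalised reads ± 0.97, against 16.6 ± 2.82 in ANKRD11, a chromatin regulator gene, and 14.1 ± 0.38 in TBCD, a tubulin folding cofactor gene (SD, n = 3). Taken to the RefSeq end, PVT1 had 9.26 normalised reads per kb ± 1.25, still below both (SD, n = 3). TBCD, ANKRD11 and GRB10 were the genes with levels most like those of PVT1 over the 3 replicates, at distances of 0.24, 0.80 and 0.82 on the log2(normalised reads + 1) scale.

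Among long intergenic non-coding genes the PVT1 introns took a large part of the signal. PVT1 supplied 15.7%, 17.2% and 19.2% of all clusters classed as lincRNA intron in replicates 1, 2 and 3. It supplied 18.2%, 19.7% and 23.7% of their reads, a mean of 20.6% ± 2.84 (SD, n = 3).

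**Figure D1:**
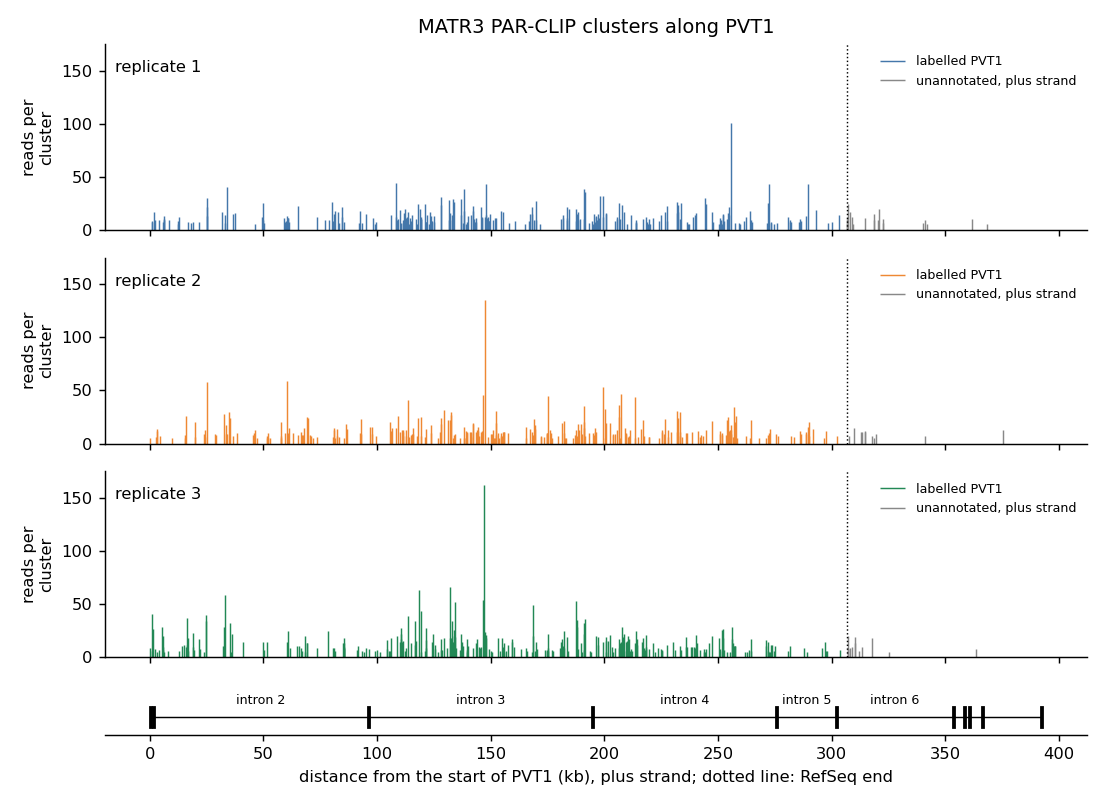
Reads per cluster (vertical axis) against the distance from the start of PVT1 in kb (horizontal axis), 1 panel per replicate, with coloured lines for clusters labelled PVT1, grey lines for unannotated clusters on the same strand, and the exons of the canonical GENCODE transcript as black boxes below. Clusters are spread over the whole labelled gene, the highest lines reach 101, 135 and 162 reads in replicates 1, 2 and 3, and the grey lines continue past the RefSeq end at 306.7 kb.

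By annotation class the PVT1 clusters were nearly all intronic. Introns held 257, 281 and 292 clusters in replicates 1, 2 and 3, or 97.3% ± 0.66 of clusters and 97.6% ± 0.26 of reads (SD, n = 3). Exons held 2, 4 and 5 clusters, and clusters across an exon-intron boundary numbered 2, 3 and 2. A further 1, 2 and 2 clusters carried the class misc_RNA under the name PVT1. The class depends on the annotation. Of the intron clusters, 9.44% ± 1.15 shared at least 1 nt with an exon of a PVT1 isoform in GENCODE release 44 (SD, n = 3). The merged exons cover 7.52% of the bases of the gene up to the last cluster. A share of clusters that touch an exon and a share of bases are unlike measures.

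Of the 11 exon clusters, 1 pair overlapped. Replicate 1 had 21 reads at 127940073 to 127940118, and replicate 2 had 11 reads at 127940097 to 127940125. In replicate 3 the nearest exon cluster, at 127940224 to 127940254 with 10 reads, did not overlap them. The exonic cluster with most reads, 38, lay at 127932530 to 127932688 in replicate 1. The misc_RNA clusters fell at 3 places. At the first, replicate 1 had 11 reads (127855238 to 127855267) and replicate 3 had 25 (127855204 to 127855268). At the next, replicate 2 had 7 reads (127939572 to 127939605) and replicate 3 had 10 (127939584 to 127939627). The last, at 128070239 to 128070260, had 9 reads in replicate 2 alone.

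Some clusters inside PVT1 carry the names of small RNA genes and are not members. MIR1205, a microRNA gene hosted by PVT1, had 1 cluster with 8 reads in replicate 1, at 127960631 to 127960667, and 1 with 7 reads in replicate 2, at 127960676 to 127960706. The annotated hairpin spans 127960633 to 127960695, so the clusters covered opposite ends of it and did not overlap. MIR1207 had 1 cluster of 11 reads in replicate 3. RNU1-106P, a U1 small nuclear RNA pseudogene, had 2 clusters with 43 reads in replicate 2 and 1 with 6 reads in replicate 3.

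The clusters were uneven along the gene. In the canonical transcript, introns 2, 3 and 4 are 94.5, 98.2 and 80.9 kb long. Intron 3 held 111, 123 and 121 clusters in replicates 1, 2 and 3, intron 4 held 82, 86 and 104, and intron 2 held 53, 65 and 62. Per kb, intron 3 had 1.21 clusters ± 0.065, intron 4 had 1.12 ± 0.14 and intron 2 had 0.635 ± 0.066 (SD, n = 3). In clusters per kb, introns 3 and 4 did not differ beyond their spread, and both lay above intron 2 in 3 of 3 replicates, with no overlap of values. The ratio of intron 3 to intron 2 in clusters per kb was 2.02, 1.82 and 1.88. Normalised reads per kb were 10.9, 13.1 and 15.5 in intron 3 in replicates 1, 2 and 3. In intron 4 they were lower in each replicate, at 9.71, 10.9 and 11.3.

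Intron 5, of 26.2 kb, was sparser again, with 13, 13 and 8 clusters, or 0.433 per kb ± 0.11 (SD, n = 3). Intron 6, of 51.2 kb, had 1 labelled cluster in each replicate. It runs from 128096655 to 128147861, mostly past the RefSeq end near which the labels stop, so this count gives no density. The first 20 kb past that end, inside intron 6, held 13, 9 and 11 unannotated plus-strand clusters. Reads followed the clusters: intron 3 held 45.2% ± 2.07 and intron 4 held 30.5% ± 1.80 of the PVT1 reads (SD, n = 3). Intron 2 held 18.7%, 21.3% and 19.9%. Intron 1, of 1.159 kb, had 2, 0 and 4 clusters, too few for a density.

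**Figure D2:**
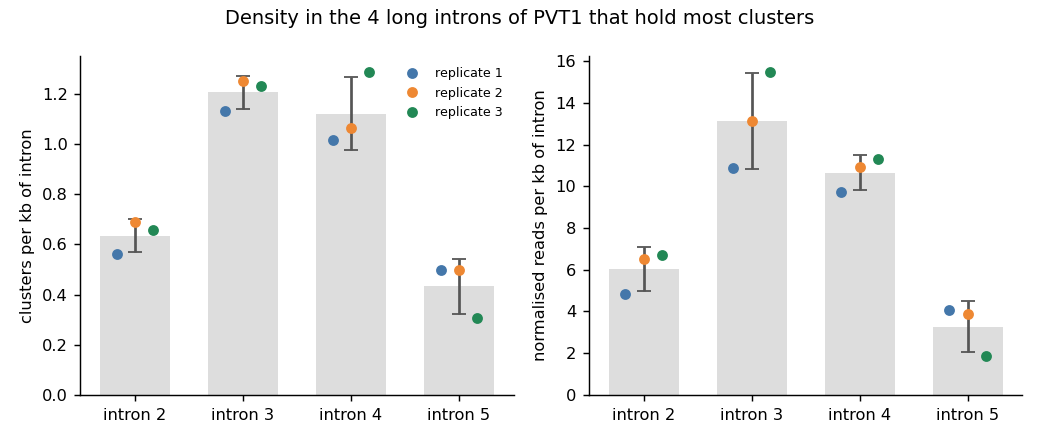
Clusters per kb (left) and normalised reads per kb (right) in introns 2 to 5 of the canonical PVT1 transcript, with bars for the mean, error bars for the SD over 3 replicates and a point per replicate. All points of introns 3 and 4 lie above all points of introns 2 and 5 in both panels.

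In windows of 10 kb from the gene start, the window from 140 to 150 kb held most reads on average, with 269, 353 and 355 in replicates 1, 2 and 3, though it led in replicate 2 alone. The window from 130 to 140 kb followed with 273, 192 and 393, and that from 110 to 120 kb with 245, 226 and 350, all in intron 3. The window from 250 to 260 kb in intron 4 held 246, 271 and 232 reads. In intron 2, the window from 70 to 80 kb held 30, 26 and 34 reads. The replicates shared this profile. Over 31 windows the reads of replicates 1 and 2 had a Spearman's rho of 0.732 and a Pearson's r of 0.771. Replicate 3 gave 0.760 and 0.803 with replicate 1, and 0.778 and 0.798 with replicate 2. The windows belong to 1 gene and share its sequence and annotation, so no p-value is given.

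Most clusters lay deep in introns. The median distance to the nearest exon of the canonical transcript was 21305, 21805 and 19692 nt in replicates 1, 2 and 3. Clusters within 500 nt of such an exon made up 2.29%, 1.72% and 1.66%. With introns 2, 3 and 4 of 94.5, 98.2 and 80.9 kb, most positions in the gene also lie far from an exon. No comparison with evenly placed positions was made, so these values describe no preference for deep intron. The median gap between neighbouring clusters was 540, 505 and 474 nt, and the longest gap was 9.18, 7.56 and 8.53 kb. Clusters covered 4.41%, 5.37% and 5.03% of the gene to its RefSeq end. No cluster was listed on the opposite strand within PVT1 in any replicate.

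No single site dominated. The cluster with most reads held 2.87%, 3.50% and 3.74% of the PVT1 reads in replicates 1, 2 and 3, and the leading 10 held 14.2% ± 1.0 (SD, n = 3). The median PVT1 cluster had 11, 10 and 11 reads, 4 distinct reads in each replicate and a length of 41, 46 and 41 nt. The fewest reads of a PVT1 cluster were 5 in each replicate.

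In replicates 2 and 3 the leading clusters overlapped, in intron 3. Replicate 2 had 135 reads, 72 of them distinct, at 127941703 to 127941986. Replicate 3 had 162 reads, 51 of them distinct, at 127941716 to 127941865. Of these reads 68.1% had a T-to-C change in replicate 2 (Wilson 95% interval 59.9 to 75.4) and 72.8% in replicate 3 (65.5 to 79.1). Intervals here cover counting error only, since reads carry no molecular identifiers. No replicate 1 cluster overlapped them. A replicate 1 cluster of 43 reads lay downstream, at 127942436 to 127942518. The leading cluster of replicate 1, at 128050026 to 128050352 in intron 4, had 101 reads and overlapped a cluster of 1 other replicate.

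Of the 15 clusters that led their replicate, 5 in each, all were intronic. They held 43 to 162 reads, and 9 of them overlapped a cluster of 1 other replicate and none of both.

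Of the PVT1 clusters, 35.9%, 32.1% and 32.6% in replicates 1, 2 and 3 shared at least 1 nt, strand included, with a cluster of at least 1 other replicate. Recurrence is used here for the share found in a single other replicate, averaged over both others. It was 20.2%, 18.4% and 18.4% for PVT1 in replicates 1, 2 and 3. After the PVT1 clusters were moved by 1000 nt up and down the chromosome it was 11.2%, 10.5% and 9.80%. The difference of 8.54 percentage points ± 0.57 had the same sign in 3 of 3 replicates (SD, n = 3). Overlap grows with the number and length of clusters, and no test was made.

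Beside other densely covered genes, ANKRD11 had 21.9% ± 3.0 found and 14.9% ± 0.64 after moving, and TBCD 16.6% ± 0.26 and 14.8% ± 1.30 (SD, n = 3). The excess over moved clusters was 7.02 points ± 3.63 in ANKRD11 and 1.76 ± 1.53 in TBCD (SD, n = 3). The PVT1 excess lay above that of TBCD in 3 of 3 replicates, while its values and those of ANKRD11 overlapped. For all other intron clusters 11.8%, 11.7% and 12.4% were found, and 5.96% ± 0.20 after moving (SD, n = 3). Their excess of 6.02 points ± 0.19 lay below that of PVT1 in 3 of 3 replicates (SD, n = 3). As a ratio of found to moved the order was reversed, with 2.01 ± 0.011 in other introns and 1.82 ± 0.064 in PVT1 (SD, n = 3). PVT1 clusters were longer than other intron clusters, with medians of 42.7 nt ± 2.89 against 38.7 nt ± 1.53 (SD, n = 3). They also had more reads, with medians of 10.7 ± 0.58 against 8.67 ± 0.58 (SD, n = 3). The part of these differences in recurrence was not tested.

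**Figure D3:**
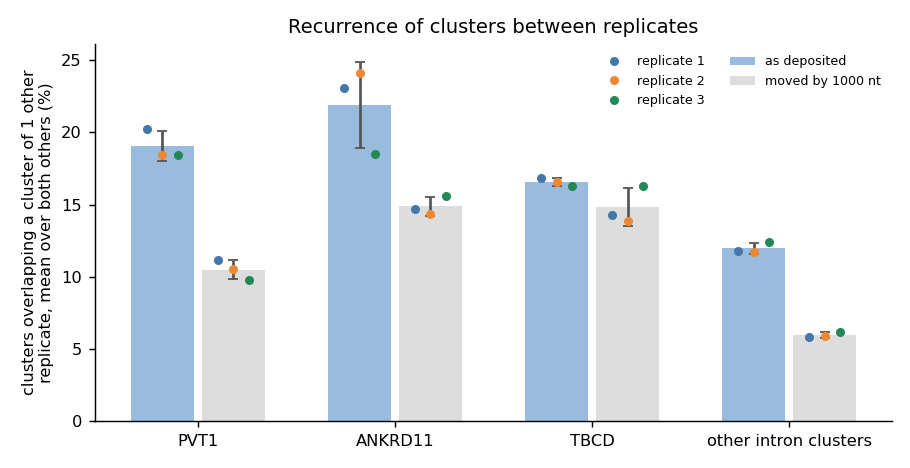
Share of clusters in percent that overlap a cluster of a single other replicate, averaged over both other replicates, for PVT1, ANKRD11, TBCD and all other intron clusters, as deposited (blue bars) and after moving by 1000 nt (grey bars), with the mean, the SD over 3 replicates and a point per replicate. For PVT1 the blue points, 18.4% to 20.2%, lie above the grey points, 9.80% to 11.2%.

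Joined across replicates, the PVT1 clusters formed 694 sites. Of these 568 were seen in 1 replicate, 109 in 2 and 17 in 3. The 17 sites held 295, 249 and 373 reads in replicates 1, 2 and 3, or 8.38%, 6.45% and 8.61% of the PVT1 reads. All 17 were classed as intronic, 12 in intron 3 and 5 in intron 4, with none in introns 2 and 5. The site at 127999011 to 127999111 in intron 4 overlapped a replicate 2 cluster of 26 reads named RNU1-106P, at 127999081 to 127999131. The peak positions of this site in replicates 1 and 3, 127999102 and 127999103, lay inside that cluster. Of all PVT1 clusters 97.3% were intronic. Introns 3 and 4 held 118.3 and 90.7 of 284.3 clusters on average, and introns 2 and 5 held 60.0 and 11.3. Overlap grows with the number of clusters, and its part in the placement of the 17 sites was not tested. Sites seen in 3 replicates were long, with a median of 114 nt against 77 nt for 2 replicates and 41 nt for 1, as joining clusters makes them.

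The site with most reads among the 17 was even across replicates. It lay at 127985462 to 127985581, 190.9 kb into the gene in intron 3, and had 38, 35 and 32 reads in replicates 1, 2 and 3. Of these 76.3%, 85.7% and 78.1% had a T-to-C change, with Wilson 95% intervals of 60.8 to 87.0, 70.6 to 93.7 and 61.2 to 89.0. Per T position its conversion was 19.6%, 19.4% and 15.4%, above the 10.8%, 11.2% and 11.1% of PVT1 intron clusters in the same replicates. The sequence of the site was 19.2% T, beside a mean of 29.4% T ± 0.51 in PVT1 intron clusters (SD, n = 3). A neighbouring site at 127985712 to 127985822 had 10, 20 and 22 reads. Its conversion per T was 7.25%, 9.47% and 10.2%, below the PVT1 level in 3 of 3 replicates, and its sequence was 26.1% T. T positions are the denominator of conversion per T, and the part of T content in these values was not tested.

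Other sites were less even. The site at 127982313 to 127982446 had 15, 7 and 64 reads, and in replicate 3 T-to-C changes were present in 45.3% of them (Wilson 95% interval 33.7 to 57.4). The site at 127913807 to 127913913 had 22, 7 and 44 reads. In intron 4, the site at 128000823 to 128000934 had 25, 36 and 9 reads. Over all 17 sites the range was 5 to 64 reads per replicate.

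Within the sites the peak position varied between replicates. The deposited mode location, the position the authors' caller gives as the peak of a cluster, spanned a median of 71 nt from the lowest to the highest of the 3 replicates over the 17 sites. The span was above 5 nt in all 17, while in 5 of them the modes of a pair of replicates lay within 5 nt. The narrowest spans were at 127900567 to 127900644, where the modes spanned 7 nt, and at 127936534 to 127936604, where they spanned 18 nt. Among the 109 sites seen in 2 replicates, the modes of 11 lay within 5 nt.

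The strength of the crosslink signal was compared between PVT1 introns and all other intron clusters, a measure the choice of gene did not use. Conversion is the number of T-to-C events over all T positions read. It was 10.8%, 11.2% and 11.1% in PVT1 and 10.5%, 11.1% and 11.2% in other introns for replicates 1, 2 and 3. The difference of 0.106 percentage points ± 0.15 was within the spread between replicates and above 0 in 2 of 3 (SD, n = 3; exact two-sided sign-flip permutation p = 0.50, adjusted over 4 tests 0.50). With at least 3 distinct reads per cluster the difference was 0.509, and against other lincRNA introns alone, a comparison chosen after seeing the data, it was -0.690.

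As a share of reads with any T-to-C change, PVT1 introns had 86.8%, 84.6% and 85.8%, and other introns had 87.6%, 86.7% and 88.0%. The difference was -1.73 points ± 0.76, below 0 in 3 of 3 replicates (SD, n = 3; exact two-sided sign-flip permutation p = 0.25, the smallest that 3 replicates allow, adjusted 0.33). The share falls with the reads in a cluster, and PVT1 clusters hold more reads. The part of read count in the difference was not tested. In clusters of 10 to 19 reads the difference was 0.114 points ± 1.0, and in those of 20 or more it was 0.104 ± 1.78, both within the spread (SD, n = 3). In those of 5 to 9 reads, with 118 PVT1 clusters on average, it was -0.903 ± 0.76 (SD, n = 3). There it was below 0 in 3 of 3 replicates, at -1.46, -1.22 and -0.036. These classes were chosen after seeing the data. Conversion per T in clusters of 10 to 19 reads was above that of other introns in 3 of 3 replicates, by 0.579 points ± 0.11 (SD, n = 3). In those of 20 or more reads it was also above in 3 of 3, by 0.374 ± 0.25 (SD, n = 3). In those of 5 to 9 reads the difference was -0.110 ± 0.28, within the spread (SD, n = 3). PVT1 clusters hold less T, as given below, and its part in conversion per T was not tested.

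**Figure D4:**
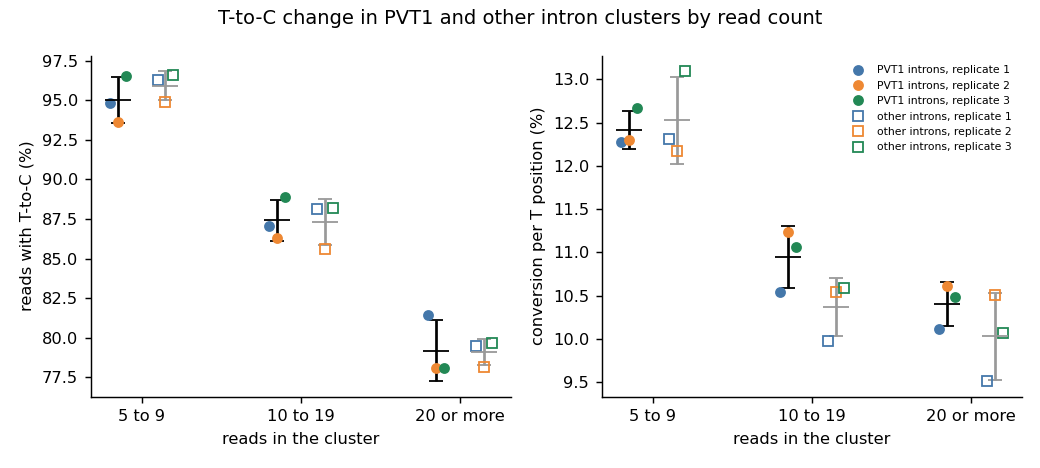
Share of reads with a T-to-C change (left) and conversion per T position (right), both in percent, for PVT1 intron clusters (filled circles) and other intron clusters (open squares) in 3 classes of read count, with a point per replicate and the mean and SD. Both measures fall with the reads in a cluster, from 95% to 79.2% of reads and from 12.4% to 10.4% of T positions in PVT1.

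The sequence of PVT1 clusters was compared in the same way. MATR3 is known to favour the RNA motif AUCUU, searched here as ATCTT on the strand of the cluster only. It occurred in 6.23%, 7.83% and 6.85% of PVT1 intron clusters and in 10.1%, 9.38% and 9.56% of other intron clusters in replicates 1, 2 and 3. PVT1 was lower in 3 of 3 replicates, by -2.71 points ± 1.15 (SD, n = 3; exact two-sided sign-flip permutation p = 0.25, the smallest possible, adjusted 0.33). Per 1000 nt of cluster, PVT1 had 1.39 ± 0.19 occurrences and other introns had 2.18 ± 0.15 (SD, n = 3). The plus strand of PVT1 to its RefSeq end had 1.25 per 1000 nt. Of the 17 sites seen in 3 replicates 5 contained ATCTT, against 11 of the 109 seen in 2 and 35 of the 568 seen in 1, lists whose sites differ in length as given above.

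PVT1 intron clusters were also poorer in pyrimidines. C and T made up 55.7%, 54.0% and 55.0% of PVT1 clusters on average and 57.8%, 56.3% and 57.9% of other intron clusters. The difference was -2.45 points ± 0.32, below 0 in 3 of 3 replicates (SD, n = 3; exact two-sided sign-flip permutation p = 0.25, the smallest possible, adjusted 0.33). By base, T was lower by -2.70 points ± 0.37, G was higher by 2.53 ± 0.44, and C and A differed by 0.247 ± 0.41 and -0.075 ± 0.21, within the spread (SD, n = 3). PVT1 clusters had 29.4% T ± 0.51 (SD, n = 3), and the plus strand of the gene has 28.8% T and 51.6% C and T. Against other lincRNA introns alone the differences kept their sign, with -1.78 points ± 1.15 for ATCTT and -2.63 ± 0.12 for C and T (SD, n = 3).

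**Figure D5:**
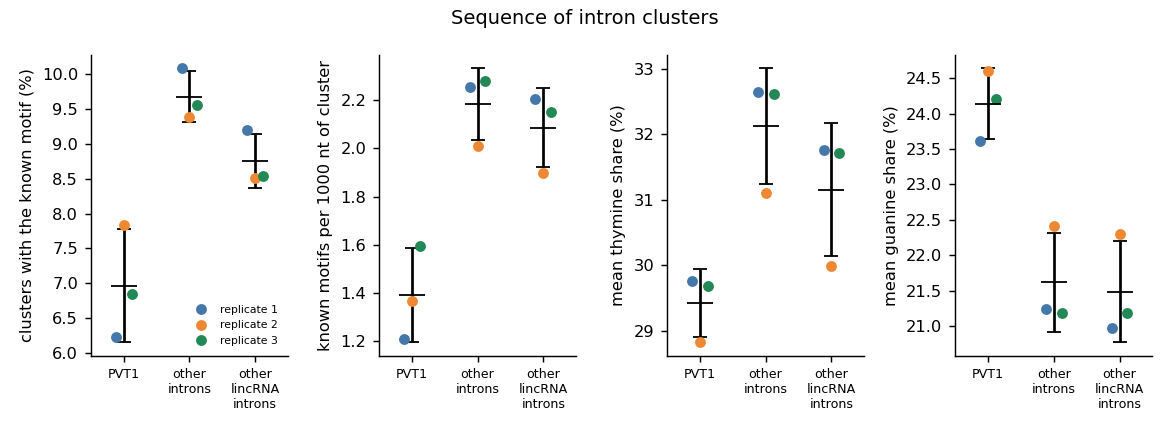
Share of intron clusters with the known MATR3 motif, motifs per 1000 nt, and mean shares of thymine and guanine, for PVT1, all other introns and other lincRNA introns, with a point per replicate and the mean and SD. The vertical axes do not start at 0, and the PVT1 points lie below the others for the motif and thymine and above them for guanine.

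MYC had a cluster in replicate 3 and none in replicates 1 and 2. The cluster lay at 127740883 to 127740953 in exon 3, in coding sequence, and ended 2 nt before the last coding position of the canonical transcript. It had 55 reads and 19 distinct reads, more reads than 98.9% of the 2274 nuclear coding clusters of that replicate, whose median is 9. Of its reads 28, or 50.9%, had a T-to-C change (Wilson 95% interval 38.1 to 63.6). The 56 coding clusters with reads within 1.5 times of it had a median of 67.4%, with quartiles of 50.9% and 76.2%. No MYC intron or UTR cluster was listed. As deposited clusters have at least 4 reads, weaker binding in replicates 1 and 2 was not detectable.

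Per kb of gene in GENCODE, MYC had 5.38 normalised reads in replicate 3 and PVT1 had 8.12 in the same replicate. Taken to the RefSeq end, near which the labels stop, PVT1 had 10.4 in that replicate. Over 3 replicates the means by GENCODE length were 1.79 ± 3.11 for MYC and 7.24 ± 0.97 for PVT1 (SD, n = 3). To the RefSeq end the PVT1 mean was 9.26 ± 1.25 (SD, n = 3). The MYC value rests on 1 library. COX7C, ELF1 and MIR4751 had the levels most like those of MYC, at log2 distances of 0.03, 0.05 and 0.08, each also with reads in replicate 3 alone.

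The strand opposite MYC carried clusters in every replicate. They numbered 4, 3 and 2 with 45, 48 and 18 reads in replicates 1, 2 and 3, on the minus strand between 127738290 and 127740422, with no annotation in the deposited files. Of the 9 clusters, 8 lay within CASC11, a long non-coding RNA gene on the minus strand (127686343 to 127738987 in GENCODE release 44) that overlaps MYC head to head, and all 9 lay opposite an exon of MYC. T-to-C reads made up 77.8%, 83.3% and 100% of their reads. The largest was at 127738591 to 127738731 in replicate 2 with 30 reads, and it overlapped replicate 1 clusters of 12 and 11 reads. Neither replicate 3 cluster overlapped one of another replicate.

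Past the RefSeq end of PVT1, clusters without annotation continued on the plus strand. They numbered 18, 11 and 12 with 190, 108 and 134 reads, from 128101312 to 128169866, inside the longer GENCODE gene. In the first 20 kb past that end there were 13, 9 and 11 clusters, or 0.550 per kb ± 0.10, beside 0.367 per kb ± 0.076 in the last 20 kb before it (SD, n = 3). Replicates 1 and 3 were higher past the end, and replicate 2 had 9 clusters on each side. From there to the GENCODE end, over 65.8 kb, there were 5, 2 and 1 clusters. In the 200 kb beyond it there were 1, 0 and 0. Of the reads in the 18, 11 and 12 clusters, 87.9%, 90.7% and 83.6% had T-to-C changes, beside 86.8%, 84.6% and 85.8% in PVT1 introns. The share was above that of PVT1 introns in replicates 1 and 2 and below it in replicate 3.

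Genes around PVT1 and genes of the MYC network were counted as 2 lists. Of 17 named coding and long non-coding genes within 2 Mb, other than PVT1 and MYC, 2 had clusters in all replicates, against 33.4% of all such genes. The list holds 12 long non-coding and 5 protein-coding genes, and by type the counts were 0 of 12 and 2 of 5, against 4.37% of all long non-coding and 42.0% of all protein-coding genes. They were ASAP1, a GTPase-activating protein gene, with 548, 729 and 477 normalised reads, and CYRIB, a regulator of the actin cytoskeleton, with 213, 284 and 338. POU5F1B, a retrogene copy of the stem cell factor gene POU5F1, had 1 cluster in replicates 2 and 3, with 10 and 8 reads at nearly the same place, 127416780 to 127416817 and 127416778 to 127416818. Reads there may be shared with POU5F1, whose sequence is close. LRATD2 had 1 cluster in replicate 1. None of the 12 long non-coding genes in the list had a cluster under its name, PCAT1, CASC8, CCAT2, CCDC26 and CASC11 among them, though unannotated clusters lay within CASC11. Over all long non-coding genes, 9.87% had a cluster in any replicate. The annotation release behind the deposited names is not given. A gene without a cluster under its name may be absent from that annotation, in the list and over all genes alike.

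Of 13 genes of the MYC network, which share dimer partners on DNA, 8 had clusters in all replicates, against 42.0% of protein-coding genes. The median of the list was 35.2 normalised reads and that of all protein-coding genes 3.16. Gene length and expression were not matched. MAX, the obligate partner of MYC, had 298, 374 and 481 normalised reads in replicates 1, 2 and 3. MLXIP, a glucose-responsive factor, had 360, 371 and 386. The repressors MNT and MXD1 had 114 ± 49.4 and 65.9 ± 22.1, and MGA had 116 ± 17.1 (SD, n = 3). MLX had 51.6 ± 16.0, MXD3 35.2 ± 29.5 and MXD4 16.9 ± 6.64 (SD, n = 3).

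Other members of the list had few or no clusters. MYCN had no cluster, MYCL had 1 with 6 reads in replicate 3, and MYC had the 1 described above. MLXIPL had none, and MXI1 had 1 and 2 clusters in replicates 1 and 2. Per kb of gene, MAX had 3.98 normalised reads ± 0.95 and MLX had 8.37 ± 2.60 (SD, n = 3). PVT1 had 7.24 ± 0.97 over its GENCODE span and 9.26 ± 1.25 to the RefSeq end (SD, n = 3). The order of MLX and PVT1 thus depends on the length used.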

How the data were processed

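Clusters were analysed as deposited by the authors, 1 table per replicate. Per the file headers, reads, distinct reads, conversion locations and conversion events are raw counts. The deposited T-to-C value is a fraction of reads, the conversion specificity is on a log10 scale and the mode score is a score; no printed result uses the last 2. The submitters' processing notes name hg38, and 854 of 854 member sequences equalled that build at 1-based coordinates. Aligner, caller and annotation release are not given in the sources used here. Deposited clusters have at least 4 reads, 2 conversion locations and 20 nt, so binding below that was not seen. The clusters of replicates 1, 2 and 3 held 1649124, 1506682 and 1532602 reads, and whole library depth is unknown. Members and lists were chosen with earlier results of these data known.

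Normalised reads are reads per 1000000 in gene-annotated clusters. Introns came from the canonical transcript of GENCODE release 44, with clusters placed by midpoint. Intron clusters are those classed as intron or lincRNA intron. Likeness to PVT1 or MYC was the Euclidean distance of log2(normalised reads + 1). Older gene names were matched through RefSeq where a name belongs to 1 gene. Differences were tested with exact sign-flip permutation over replicates, with Benjamini-Hochberg adjustment over 4 tests. Functions were tested on simulated data. Named genes were PVT1, MYC, the MYC network, neighbours within 2 Mb with a cluster, ANKRD11, TBCD and the 3 genes nearest to each member; genes without clusters were named after their values were seen. Sites named were the leading 5 per replicate and those in all replicates; exonic, small RNA and unannotated clusters were named after their values were seen. Alternatives were clusters with at least 3 distinct reads, each replicate left out, all reads as denominator, weighting by reads, 20-kb windows, 50% overlap, moving by 5000 nt, medians, motifs per 1000 nt, and 2 clusters per gene. Python 3.11.15, pandas 2.3.3 and scipy 1.17.1 were used.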

Additional observations from a re-analysis of the deposited data

Results flagged for a closer look

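Unannotated clusters opposite MYC on the minus strand held 37.0 reads on average per replicate, and unannotated plus-strand clusters past the RefSeq end of PVT1 held 144 reads on average. They carry no gene name, so no comparison by gene used them, and both means exceed 3 reads, the upper limit for a count of 0. Any listed cluster exceeds it too, since the fewest reads listed are 4. Of the clusters past the end, 2 of 18, 1 of 11 and 1 of 12 overlapped one of another replicate in replicates 1, 2 and 3. Opposite MYC, 3 of 4, 2 of 3 and 0 of 2 did.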

How the results depend on the processing

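Of 58 recomputed values, 48 kept their direction or stayed within the spread between replicates, 5 moved by more and 5 changed sign. The rho of reads between replicates over 10-kb windows, 0.757 on average, was 0.723 with at least 3 distinct reads per cluster, 0.823 with 20-kb windows, and 0.732 to 0.778 with 1 replicate left out. Recurrence of PVT1 clusters fell to 9.08% when 50% of both clusters had to overlap, since fewer overlaps count. The ratio of found to moved clusters, 1.82, was 1.73 after moving by 5000 nt. The difference in conversion per T changed sign to -0.069 points for medians over clusters. It was -0.690 against other lincRNA introns and -0.110 in clusters of 5 to 9 reads, settings chosen after seeing the data; the cause was not tested. With at least 3 distinct reads it was 0.509. The difference in reads with T-to-C turned to 0.114 points in clusters of 10 to 19 reads and 0.104 in those of 20 or more. No p-value could pass 0.05 with 3 replicates, so these comparisons concern direction and size only. No paired analysis was possible because there are no groups of samples to pair, and the sign-flip tests compare sets of clusters within each replicate.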

Other observations

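Within PVT1, clusters found in no other replicate had T-to-C changes in 87.6% ± 1.21 of reads, those found in 1 other in 82.7% ± 2.30 and those found in both in 84.9% ± 1.04 (SD, n = 3). Their median reads were 9.67 ± 0.58, 13.0 ± 1.0 and 14.7 ± 2.84, so read count moves with recurrence here, and its part in the shares was not tested.

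Conversion per T was 11.4% ± 0.41 in intron 2, 11.1% ± 0.24 in intron 3, 10.8% ± 0.20 in intron 4 and 12.2% ± 1.90 in intron 5, which holds 8 to 13 clusters per replicate (SD, n = 3). Introns 2, 3 and 4 stood in this order in 3 of 3 replicates, and the order was not tested. Clusters with ATCTT made up 6.38% ± 1.35, 8.60% ± 1.26, 5.51% ± 1.63 and 5.13% ± 4.44 of these introns (SD, n = 3).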
